A study of Mus musculus with 4 samples.

Results

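Nodal, its feedback inhibitors Lefty1 and Lefty2, and 6 genes that carry or restrain the same signal were followed in mouse embryonic stem (ES) cells. The 6 genes were Tdgf1, Acvr2b, Furin, Foxh1, Smad7 and Skil. Aggregates formed from these cells, which the study takes as primed, were followed too, with and without drugs against chromatin regulators. The members were all probes that carry the name of 1 of these 9 genes in the scanner files, which gave 12 probes of 55681, or 9 of the 36163 gene names on the array. Tdgf1 had 3 probes, Skil had 2 and each of the others had 1. The genes were chosen with the AZA array in view, because Lefty1 was among the highest rises with AZA, so the AZA minus ELA values of the members are given as a description. That rise rests on a low ELA reading as much as on a high AZA reading, so the counts, medians and ranks of the members in every comparison with either array are descriptions too.

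The cells were E14Tg2A, an ES line from mouse strain 129/Ola, and all arrays used this line. ES stands for untreated cells at the start (0 days in vitro, DIV), grown on gelatin with serum and the cytokine LIF. ELA stands for untreated epiblast-like aggregates at 2 DIV, which are ES cells moved into a chemically defined minimal medium without serum or LIF and left to float as aggregates. AZA stands for aggregates of the same age formed with 50 nM 5-azacytidine, an inhibitor of DNA methyltransferases, and CHQ for aggregates formed with 100 µM 5-carboxy-8-hydroxyquinoline, an inhibitor of lysine demethylases. Each group was 1 single-colour array, so that a group has no replicate, no p-value was computed, and precision is limited by the number of arrays. The methods of the study state that RNA was pooled over 3 sets of treatments. They do not say whether this holds for the untreated ES and ELA arrays.

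Nodal is a secreted ligand of the TGF-beta family that pluripotent cells make and respond to. Its precursor is cut by convertases such as Furin and Pcsk6, and the mature ligand binds activin receptors together with the co-receptor Tdgf1 (Cripto), after which Smad2 and Smad3 join Smad4 and the DNA-binding partner Foxh1 at target genes. Nodal itself, both Lefty genes and Smad7 are among the known targets, and Lefty proteins and Smad7 act back on the pathway as inhibitors.

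Levels below are log2 intensities after background correction and quantile normalisation over the 4 arrays, and differences are log2 differences between arrays. Orders of the arrays are those of this scaling, and changes with spike-in scaling are given with the comparisons. All 12 member probes were well above background on all 4 arrays and none was saturated. Within an array, spots that repeat a probe had a pooled SD of 0.15, which gives an SD of 0.21 for a difference between arrays; this spread covers spotting and reading and no biological variation. The ES and ELA arrays lay on one slide and the AZA and CHQ arrays on another, with a median local background of 59 and 77 intensity units on the former and 14 and 13 on the latter, and with 60.6%, 55.1%, 69.1% and 69.2% of gene spots well above background on ES, ELA, AZA and CHQ. The treatment and the slide therefore cannot be told apart in AZA or CHQ against ELA or ES, whereas ELA against ES and CHQ against AZA stay within a slide. In these bulk samples, fewer cells that express a gene and less RNA per cell cannot be told apart.

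The ligand Nodal was measured by a probe at chr10:60887790-60887849 (mm9, plus strand). Its level was 13.04 on ES, 9.32 on ELA, 14.17 on AZA and 13.91 on CHQ. ELA was the low array, and AZA and CHQ lay at the top with a gap of 0.27 between them. With spike-in scaling, described below, CHQ lay slightly below ES. The mean spot intensity behind these levels, before any correction, was 9765 on ES, 592 on ELA, 17218 on AZA and 14174 on CHQ.

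The inhibitors Lefty1 and Lefty2 are close paralogs that neighbour each other on chromosome 1, so the bases that tell their transcripts apart matter for reading them as separate genes. The Lefty1 probe lies at chr1:182868137-182868196 and the Lefty2 probe at chr1:182828893-182828952 (mm9, plus strand), and the longest run the 60-base probes share is 5 bases. A 30-base stretch of each is shown 5′ to 3′ with that shared run in capitals, from chr1:182868137-182868166 for Lefty1 and chr1:182828896-182828925 for Lefty2.
Lefty1: CTTTCatgcaaatctgaagtgctcattata
Lefty2: ggtgtacctgagtCTTTCtggccattgcct
The probes were compared with each other and not with the transcripts, so a short shared run does not show that either probe is specific. How far either probe binds the other transcript was not tested.

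Lefty1 stood at 11.51 on ES, 7.90 on ELA, 14.07 on AZA and 11.59 on CHQ. Lefty2 stood at 11.50 on ES, 9.11 on ELA, 14.96 on AZA and 12.08 on CHQ. For both genes the order was ELA, ES, CHQ and AZA from low to high, with AZA well apart from CHQ. With spike-in scaling, described below, CHQ lay below ES for both. ES and CHQ were 0.08 apart for Lefty1, less than the spread of repeated spots, and 0.57 apart for Lefty2. Before any correction, the Lefty1 spot read 3143 on ES, 226 on ELA, 16131 on AZA and 3135 on CHQ.

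**Figure D1:**
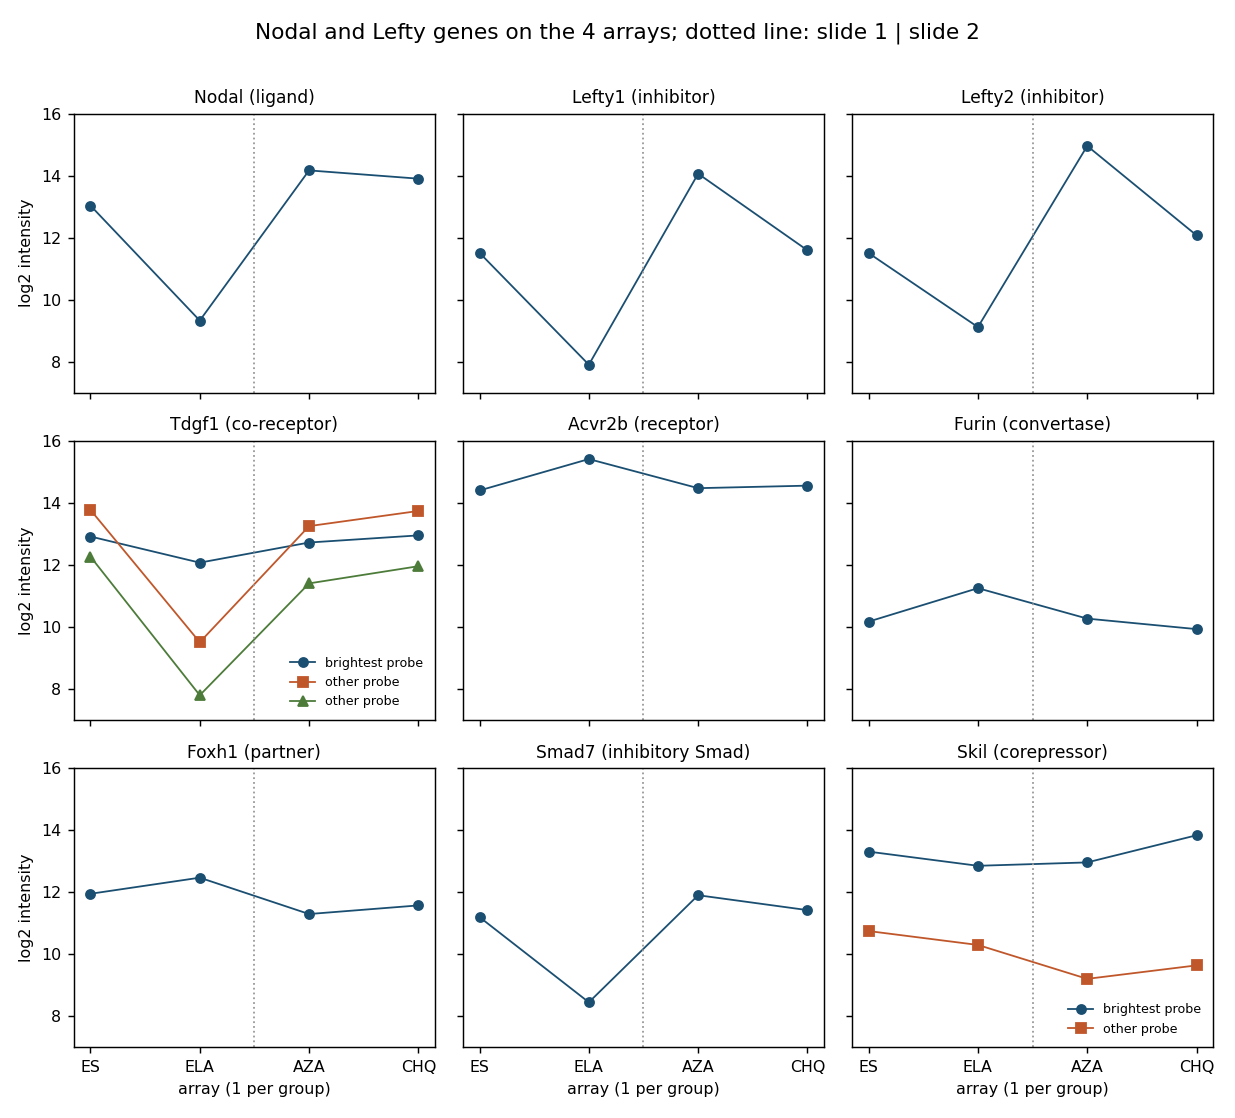
Log2 intensity (vertical axis) of each member on the ES, ELA, AZA and CHQ arrays, 1 array per group, with a line per probe that only guides the eye and a dotted line between the slides. Nodal, Lefty1, Lefty2 and Smad7 dip on ELA, as do the 3 Tdgf1 probes, the brightest of them least, whereas Acvr2b, Furin and Foxh1 are highest on ELA.

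The co-receptor Tdgf1 gave different answers by probe. The probe at chr9:110842866-110842925 read 12.27 on ES, 7.79 on ELA, 11.41 on AZA and 11.96 on CHQ. The probe at chr9:110843099-110843158 read 13.78 on ES, 9.51 on ELA, 13.26 on AZA and 13.74 on CHQ. Both were far lower on ELA than elsewhere. The probe at chr9:110842722-110842781, the brightest on average, read 12.92 on ES, 12.08 on ELA, 12.73 on AZA and 12.96 on CHQ. It was lowest on ELA too, by a much smaller step. All lie on the minus strand of mm9. What sets the flatter probe apart in sequence is a run of 31 bases that are only A or G, as long as in 80 of the 55681 probes on the array (0.144%). A 30-base stretch of each probe is shown 5′ to 3′, with its longest run of only A and G or only C and T in capitals, to make that contrast visible. The stretches are chr9:110842732-110842761 for the flatter probe, where all 30 bases fall in the run, chr9:110842882-110842911, where the run is 5 bases, and chr9:110843113-110843142, where it is 6.
Tdgf1, flatter probe: GGGGAGAAAAAAGAGAGAGAGAGAAGAAAA
Tdgf1, at chr9:110842866: ccagtgtgcaactGGAAGtaaattcagagt
Tdgf1, at chr9:110843099: tccctaatgttaCCCCTCaaaacactaact
Whether this run accounts for the smaller step was not tested. The brightest probe stands for a gene in the counts below, so Tdgf1 enters them with the flatter probe, and the values without it are given beside them.

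The type II receptor Acvr2b, to which Nodal and activin bind, was measured at chr9:119342560-119342619 (mm9, plus strand). It read 14.41 on ES, 15.42 on ELA, 14.48 on AZA and 14.56 on CHQ. ELA was the high array, and ES, AZA and CHQ followed each other at gaps of 0.07 and 0.08, within the spread of repeated spots. With spike-in scaling AZA and CHQ lay below ES.

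The convertase Furin, which cuts the Nodal precursor, was measured at chr7:87534082-87534141 (mm9, minus strand). It read 10.17 on ES, 11.25 on ELA, 10.27 on AZA and 9.93 on CHQ. ELA was again the high array, ES and AZA were 0.10 apart and CHQ was lowest. With spike-in scaling AZA lay below ES.

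The nuclear partner Foxh1, which brings Smad2 and Smad3 to DNA, was measured at chr15:76498767-76498826 (mm9, minus strand). Its level was 11.95 on ES, 12.47 on ELA, 11.30 on AZA and 11.58 on CHQ. The order ran AZA, CHQ, ES and ELA, with gaps of 0.28, 0.38 and 0.52 between neighbours.

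Smad7, an inhibitory Smad that blocks the activated receptor, read 11.20 on ES, 8.45 on ELA, 11.91 on AZA and 11.43 on CHQ. Its order was that of Nodal, with ELA far below and ES, CHQ and AZA within 0.71 of each other. With spike-in scaling CHQ lay below ES here too. Skil (SnoN), a corepressor of Smad-driven transcription, had a probe at chr3:31021203-31021262 with 9 usable spots per array, which is the only member probe with a measured technical spread. This probe read 13.31 ± 0.06 on ES, 12.86 ± 0.06 on ELA, 12.97 ± 0.08 on AZA and 13.84 ± 0.11 on CHQ (SD over 9 spots of the same array). CHQ was the high array, and ELA and AZA were 0.11 apart. With spike-in scaling ES was the high array for this probe instead. The other Skil probe, at chr3:31016390-31016449 (both mm9, plus strand), read 10.75 on ES, 10.30 on ELA, 9.21 on AZA and 9.64 on CHQ, so that both probes were higher on CHQ than on AZA but differed in where these arrays stood against ES and ELA.

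To see how these genes differed between ES cells and untreated aggregates, ELA was compared with ES within a slide. Cell state, medium, loss of serum and LIF, and aggregation all differ between these arrays and cannot be told apart. Nodal fell by 3.71 log2 units (13.1-fold), Lefty1 fell by 3.61 (12.2-fold), Lefty2 fell by 2.39 (5.24-fold) and Smad7 fell by 2.75 (6.73-fold). Acvr2b was higher by 1.01 and Furin by 1.08. To be called changed, a gene needed a log2 difference of 1 or more in size, a mean level of 7.5 or more over both arrays and a signal well above background on at least 1 of these; all 9 members met the conditions on level in every comparison. By this rule 4 members were lower and 2 higher, beside 5.59% of the 18947 genes tested that were lower and 4.45% that were higher; the ELA array had a part in the choice of genes, and nothing is read from the counts. The median member, Tdgf1 by its flatter probe, differed by -0.84 and the median gene by -0.02. Without that probe Lefty2, at -2.39, was the median member. Nodal held rank 19 and Lefty1 rank 27 from the lowest among the genes tested. Foxh1 (0.52), Skil (-0.46) and Tdgf1 by its flatter probe (-0.84) did not reach the threshold, whereas the other Tdgf1 probes differed by -4.48 and -4.27.

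Scaling the arrays to spike-in probes instead of by quantiles moved the median of all genes to -0.59 in this comparison and left 6 members lower (Nodal, Lefty1, Lefty2, Tdgf1, Smad7 and Skil) and 0 higher, beside 18.9% of all genes tested lower and 1.54% higher under that scaling. Under that scaling Acvr2b differed by 0.35, Furin by 0.50 and Foxh1 by -0.11, so the calls of Acvr2b and Furin are lost and the sign of Foxh1 turns. The Acvr2b call was also lost, at 0.92, when scaled to the 75th percentile of the processed signal. Relative to the median of all genes, these genes still lay above it and Nodal, Lefty1, Lefty2 and Smad7, at -4.42, -4.09, -2.97 and -3.30, below it. Of all genes called in ELA minus ES, 7.52% were higher under this scaling and 44.3% under the quantile scaling.

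To see where the same genes stood when DNA methyltransferases were inhibited during aggregate formation, AZA was compared with ELA. Lefty1 was higher by 6.17 log2 units (71.9-fold), Lefty2 by 5.85 (57.7-fold), Nodal by 4.85 (28.8-fold) and Smad7 by 3.46 (11.0-fold). Foxh1 differed by -1.17 (2.26-fold lower). Beside these 4 higher members and 1 lower, 14.3% of the 19159 genes tested were higher and 11.4% lower by the same rule; as the genes were picked from this contrast, nothing is read from the counts. Lefty1 held rank 15, Lefty2 rank 19, Nodal rank 61 and Smad7 rank 247 from the highest. Acvr2b (-0.94) and Furin (-0.98) fell just short of the threshold and Foxh1 (-1.17) just past it. Skil differed by 0.11 in its brighter probe and by -1.09 in the other. The Tdgf1 probes differed by 0.65 (the flatter probe), 3.61 and 3.75. Scaling to the 75th percentile of the processed signal, which moved the median of all genes from -0.07 to -0.20, gave 5 members higher and 3 lower, with Tdgf1, Acvr2b and Furin added, beside 13.9% of all genes higher and 14.7% lower. Furin was also called under spike-in scaling (-1.03), in the deposited value table (-1.16) and, just past the threshold, with a normexp offset of 16, and Acvr2b under spike-in scaling (-1.25). Under the 75th percentile another Tdgf1 probe was the brightest and stood for the gene, with a difference of 3.74.

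For the demethylase inhibitor, CHQ was compared with the same ELA array. Nodal was higher by 4.58 log2 units (23.9-fold), Lefty1 by 3.69 (12.9-fold), Smad7 by 2.98 (7.87-fold) and Lefty2 by 2.96 (7.80-fold). Furin differed by -1.32 (2.50-fold lower). These were 4 members higher and 1 lower, beside 14.8% of the 19163 genes tested that were higher and 11.9% that were lower, and again nothing is read from the counts, as the ELA array enters. The median member differed by 0.99 and the median gene by -0.09. Without the flatter Tdgf1 probe Lefty2, at 2.96, was the median member. Nodal held rank 73 from the highest, and Lefty1, Smad7 and Lefty2 ranks 212, 460 and 466. Acvr2b (-0.86) and Foxh1 (-0.90) did not reach the threshold. Skil differed by 0.99 in its brighter probe, close to the threshold, and by -0.66 in the other. The Tdgf1 probes differed by 0.88 (the flatter probe), 4.17 and 4.24. Spike-in scaling, which moved the median of all genes to -0.39, gave 4 members higher and 3 lower, with Acvr2b (-1.40) and Foxh1 (-1.08) added, beside 11.1% of all genes higher and 22.6% lower. The 75th percentile gave 5 higher and 2 lower, with Tdgf1 and Acvr2b (-1.25) added, beside 13.7% and 19.0%. AZA minus ELA and CHQ minus ELA share the ELA array, as does ELA minus ES, so a low or high reading on that array enters all of them.

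**Figure D2:**
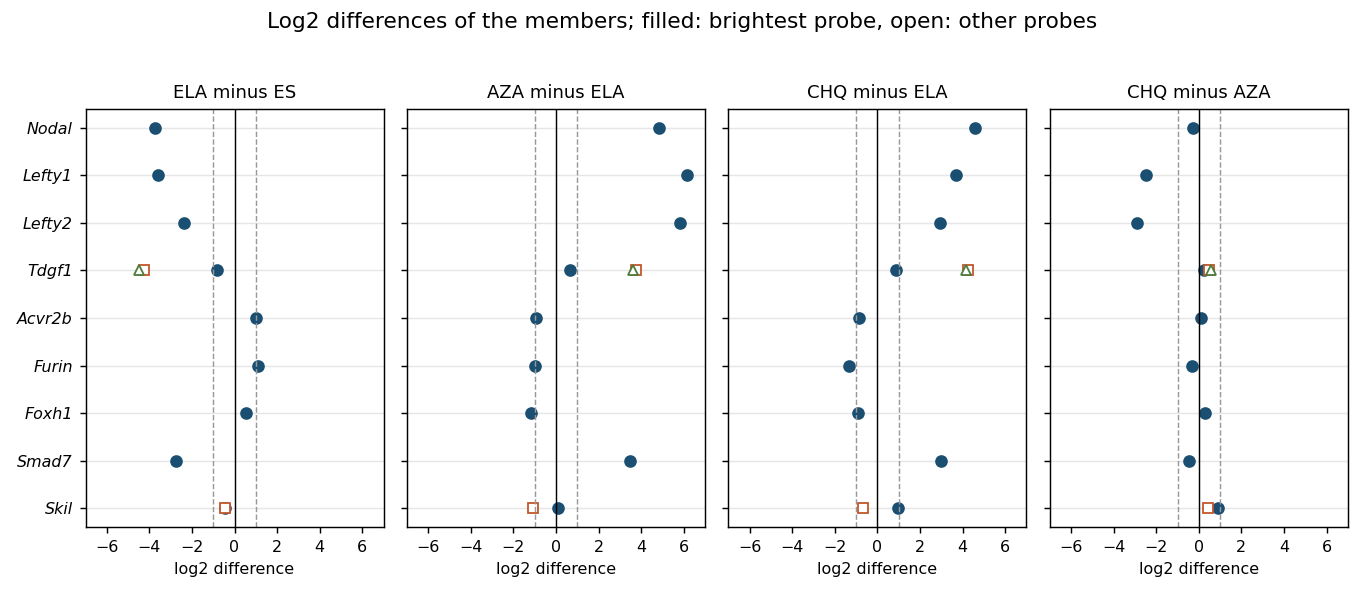
Log2 difference (horizontal axis) of each member in the 4 comparisons, with filled symbols for the brightest probe of a gene, open symbols for its other probes and dashed lines at the threshold of 1. Nodal, Lefty1, Lefty2 and Smad7 lie left of the lines in ELA minus ES and right of them against ELA in both treatments, and only Lefty1 and Lefty2 lie beyond them in CHQ minus AZA.

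CHQ against AZA sets the drugs side by side on the same slide and without the ELA array; their doses and molecular targets differ. The comparison uses the AZA array on which the choice of genes rests, so its values are a description too, and nothing is read from the counts and ranks. Lefty2 was 7.40-fold lower on CHQ (a log2 difference of -2.89) and Lefty1 5.56-fold lower (-2.47). Nodal, the ligand, differed by -0.27, Smad7 by -0.48, Foxh1 by 0.28, Furin by -0.34, Acvr2b by 0.08 and Skil by 0.88. Thus 2 members were lower and 0 higher, beside 4.81% of the 19196 genes tested that were lower and 5.53% that were higher. Lefty2 held rank 23 and Lefty1 rank 69 from the lowest. The median member differed by -0.27 and the median gene by -0.02. The Tdgf1 probes differed by 0.23, 0.55 and 0.49. The difference of Lefty1 stayed between -2.53 and -2.46 and that of Lefty2 between -2.95 and -2.86 over the 5 other ways of processing that could change them. Acvr2b turned to -0.15 under spike-in scaling and to -0.04 under the 75th percentile.

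Across slides, the treated aggregates were also set beside ES, from which they differ in medium, serum, LIF and aggregation too. For AZA this again uses the array on which the genes were picked, and the values are a description. The comparisons against ES were not run under the other ways of processing, but their steps through ELA were. On AZA, Lefty2 was higher by 3.46 log2 units (11.0-fold), Lefty1 by 2.56 (5.88-fold) and Nodal by 1.14 (2.20-fold), while 11.2% of all genes tested were higher and 8.28% lower. The other 6 members did not pass the threshold on their brightest probe, with Smad7 at 0.71, Foxh1 at -0.65, Skil at -0.35, Tdgf1 at -0.19, Furin at 0.10 and Acvr2b at 0.07. The other Tdgf1 probes differed by -0.86 and -0.52 and the dimmer Skil probe by -1.54. With spike-in scaling the steps ELA minus ES and AZA minus ELA were -4.42 and 4.69 for Nodal, so its call is lost. The 75th percentile, with -4.05 and 4.97, loses it too. With spike-in scaling Foxh1 (-0.11 and -1.24) and Skil (-1.18 and -0.03) passed the threshold as lower. Tdgf1 by its flatter probe (-1.56 and 0.56) fell just short of it. Smad7 (-3.30 and 3.34) came close to ES. Acvr2b (0.35 and -1.25) and Furin (0.50 and -1.03) lay below ES on AZA, short of the threshold. Lefty1 (-4.09 and 5.91) and Lefty2 (-2.97 and 5.65) kept their calls as higher. On CHQ no member passed on its brightest probe, against 12.7% of all genes higher and 10.3% lower, and these probes ranged from -0.38 for Foxh1 to 0.87 for Nodal. Lefty1 differed from ES by 0.08 and Smad7 by 0.23 on CHQ, and the other Tdgf1 probes by -0.31 and -0.03, while the dimmer Skil probe differed by -1.11. With spike-in scaling the steps ELA minus ES and CHQ minus ELA were 0.35 and -1.40 for Acvr2b and -0.11 and -1.08 for Foxh1. Both genes then passed the threshold as lower on CHQ. Nodal (-4.42 and 4.24), Lefty1 (-4.09 and 3.39), Lefty2 (-2.97 and 2.74), Smad7 (-3.30 and 2.75) and Skil (-1.18 and 0.63) turned to below ES. Tdgf1 by its flatter probe (-1.56 and 0.63) did so too.

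The other genes of the pathway were taken from a list of 40 ligands, receptors, extracellular inhibitors, convertases, Smads and their anchor, corepressors, turnover factors and targets, all with a probe on the array. In ELA minus ES, 30 of them met the conditions on level, of which 4 were lower and 1 higher. In AZA minus ELA it was 3 higher and 2 lower of 29, in CHQ minus ELA 8 higher and 4 lower of 30, and in CHQ minus AZA 2 higher and 1 lower of 31. Over all genes tested, 10.0%, 25.6%, 26.6% and 10.3% were changed in either direction in these comparisons, and no count of the list is read as a result about it. The median of the list was 0.11, -0.01, 0.22 and 0.01 in these comparisons, beside -0.02, -0.07, -0.09 and -0.02 over all genes tested. With spike-in scaling the list had 0 higher and 6 lower in ELA minus ES, beside 1.54% and 18.9% of all genes. In AZA minus ELA it had 3 higher and 4 lower, beside 12.6% and 15.1%. In CHQ minus ELA these were 5 and 6, beside 11.1% and 22.6%, and in CHQ minus AZA 2 and 2, beside 4.39% and 6.16%. Nothing is read from these counts either.

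Among the ligands, Gdf3, a relative of Nodal that also acts through Tdgf1, read 14.63 on ES, 12.62 on ELA, 14.96 on AZA and 14.37 on CHQ. It fell by 2.01 from ES to ELA, and was higher than ELA by 2.35 on AZA and by 1.75 on CHQ; its dimmer probe passed the threshold in the first of these comparisons and stayed at 0.76 and 0.86 in the others. Gdf1, a ligand that pairs with Nodal, read 12.84 on ES, 12.94 on ELA, 12.45 on AZA and 11.14 on CHQ. CHQ differed from ELA by -1.81 and from AZA by -1.32, and both calls were lost under the mean over probes; its dimmer probe was not well above background on ES or ELA. The activin subunit gene Inhbb was not well above background on ELA and at least 2.98-fold higher on ES, a bound set by the ELA reading; its call was lost under 4 of 7 other ways of processing. Tgfb2 fell by 1.35 from ES to ELA.

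Among convertases and extracellular inhibitors, Pcsk6 (PACE4), which like Furin cuts the Nodal precursor, read 12.10 on ES, 9.92 on ELA, 13.23 on AZA and 13.07 on CHQ. It fell by 2.18 from ES to ELA, and was higher than ELA by 3.31 on AZA and 3.15 on CHQ, opposite in sign to Furin in each of these comparisons and under the other ways of processing that were run. The activin-binding inhibitor Fst read 10.23 on ES, 10.46 on ELA, 12.48 on AZA and 11.80 on CHQ, so that ES and ELA were 0.22 apart and both treated arrays lay above them. Cer1, a secreted Nodal antagonist, and Bambi, a decoy receptor, were not well above background on any array.

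Among receptors, Cfc1, a co-receptor of the same family as Tdgf1, read 10.43 on ES, 10.02 on ELA, 8.84 on AZA and 8.04 on CHQ. It differed from ELA by -1.18 on AZA and by -1.98 on CHQ. Tgfbr3 (betaglycan), which presents ligand, read 7.95 on ES, 9.00 on ELA, 9.23 on AZA and 11.26 on CHQ, with CHQ far above the rest. Tgfbr2, the type II receptor for TGF-beta, was higher on CHQ than on ELA by 1.13 and than on AZA by 1.56, but its dimmer probe differed by 0.45 and 0.12. Acvr1c was not well above background on any array.

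Inside the cell, Smad2 and Smad4 reached the threshold in none of these comparisons, and Smad3 was higher on CHQ than on ELA by 1.17, a call lost under spike-in scaling and the mean over probes; its dimmer probe was not well above background on ELA. Zfyve9 (SARA), which anchors Smad2 and Smad3 at the receptor, was at -1.31 on CHQ against ELA. The corepressor Tgif2 differed from ELA by -1.07 on AZA and by -1.52 on CHQ, with the same sign in its other probes, and Ski, a relative of Skil, was higher on CHQ by 1.09, a call lost under spike-in scaling and in the deposited value table. All 4 turnover factors (Smurf1, Smurf2, Rnf111 and Ppm1a) stayed below the threshold in each comparison by their brightest probe.

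Of the 5 targets listed, Pmepa1, which restrains Smad signalling, was not well above background on ELA and at least 3.39-fold higher on CHQ, as measured against the lowest signal well above background on ELA; its call was lost under 5 of 7 other ways of processing. It was well above background on AZA too, at 8.37, with a mean level under 7.5 in AZA minus ELA. The mesendoderm targets Gsc and Mixl1 did not reach a mean level of 7.5 in any comparison, and Eomes differed from ELA by -0.70 on AZA and -0.89 on CHQ. The dimmer Eomes probe differed by 0.02 and -0.18. Eomes was called lower on CHQ than on ELA with spike-in scaling and in the deposited value table.

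**Figure D3:**
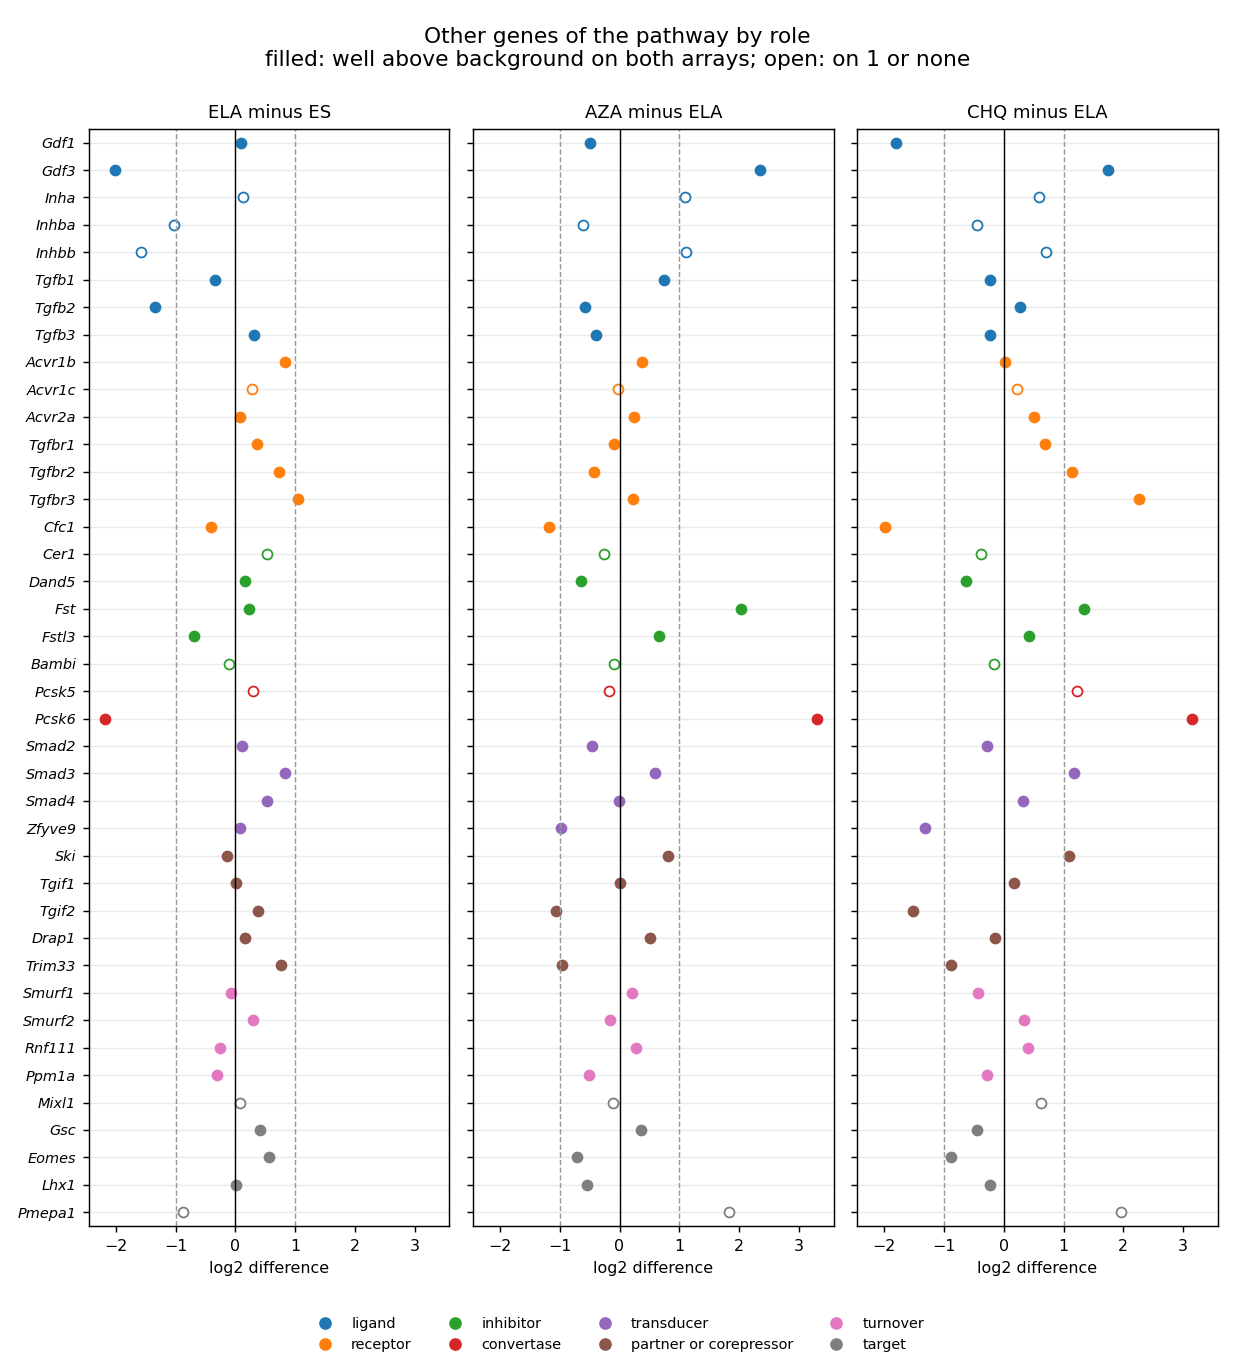
Log2 difference (horizontal axis) of the 40 other pathway genes in ELA minus ES, AZA minus ELA and CHQ minus ELA, coloured by role, with open circles where the probe was not well above background on both arrays and dashed lines at the threshold of 1. Gdf3 and Pcsk6 lie left of the lines in ELA minus ES and right of them in both other panels.

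To find the genes whose pattern over the 4 arrays was most like that of Nodal or a Lefty gene, each profile was centred on its mean. The root-mean-square difference was then taken to each of 13248 genes well above background on all arrays. Only genes with an ordinary symbol entered, which leaves out names such as those of clones and predicted genes, and the ranks are among these. Nearest to Nodal were Triml1 (0.14), Gtsf1 (0.37), Klf4 (0.39), a transcription factor of ground-state pluripotency, Grhl3 (0.45) and Laptm5 (0.51). Triml1 read 12.40 on ES, 8.82 on ELA, 13.75 on AZA and 13.12 on CHQ. Among the other members, Smad7 came at rank 18 of this order (0.62), Lefty1 at rank 47 (0.79) and Lefty2 at rank 183 (1.05).

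Nearest to Lefty1 were Arl14epl (0.43), Klk1b5 (0.44), Phf11d (0.45), Lefty2 (0.46) and Ly6g6e (0.53), with Nodal at rank 20. Nearest to Lefty2 were Klk1b5 (0.21), Klk1 (0.33), Klk1b26 (0.34), Klk1b3 (0.41) and Lefty1 (0.46), with Nodal at rank 88. The Klk1 genes, which encode kallikreins, are near-identical copies whose probes may share signal, so they are uncertain as separate genes. With 4 arrays, a likeness of this kind is a description, and the arrays it rests on are the ones the differences above were taken from.

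**Figure D4:**
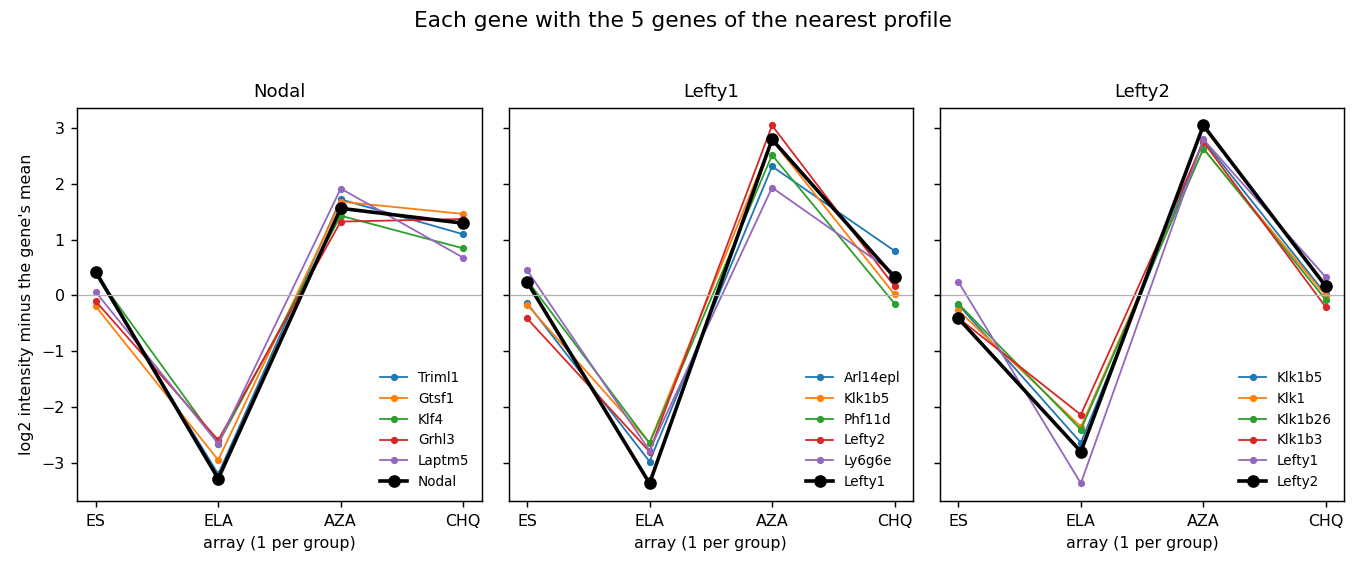
Log2 intensity minus the mean of the gene over the 4 arrays (vertical axis) for Nodal, Lefty1 and Lefty2 (black) and the 5 genes of nearest profile (colours), on 1 array per group. The black Nodal line is nearly level between AZA and CHQ, whereas both Lefty lines peak on AZA.

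Promoter sequence was looked at because AZA acts on the methylation of CG pairs, which these arrays do not measure. RefSeq windows (GRCm38.p6) from 250 bases before to 50 after a gene start were matched for 4 of the 9 members, Nodal, Tdgf1, Acvr2b and Furin, with 2 starts for Furin. Nodal had 5 CG pairs in its 300 bases, Tdgf1 7, Acvr2b 27, and the Furin starts 7 and 51, beside a median of 7 over all 32851 windows of the table. The bases before the start are printed for Nodal and Tdgf1, the members of this set with a steep difference, 5′ to 3′ on the strand of the gene with each CG pair in capitals, from chr10:61417722-61417971 (plus strand) for Nodal, which holds 3 of its 5 pairs, and chr9:110946159-110946408 (minus strand) for Tdgf1, which holds 7.
Nodal: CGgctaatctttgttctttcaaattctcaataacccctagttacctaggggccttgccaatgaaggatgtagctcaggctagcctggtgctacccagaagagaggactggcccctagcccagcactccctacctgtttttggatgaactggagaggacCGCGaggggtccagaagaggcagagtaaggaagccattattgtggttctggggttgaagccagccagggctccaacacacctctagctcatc
Tdgf1: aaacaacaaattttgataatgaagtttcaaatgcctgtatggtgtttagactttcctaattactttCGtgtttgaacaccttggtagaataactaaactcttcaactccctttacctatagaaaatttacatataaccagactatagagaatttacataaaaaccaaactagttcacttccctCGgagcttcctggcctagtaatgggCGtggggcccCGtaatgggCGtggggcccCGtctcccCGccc
The windows were searched on both strands for the letters TGTGNATT, of the kind bound by FOXH1, and GTCTAGAC and CAGAC, of the kind bound by SMADs; CAGAC does not occur inside the others. TGTGNATT and GTCTAGAC were in 0 of the 5 member windows, where 3.6% and 0.213% of all windows hold them. So few windows would seldom hold letters this rare, and nothing is read from their absence. CAGAC was in 4 of the 5, both Furin starts among them, where 49.6% of all windows hold it. Sequence outside the windows was not searched. The Nodal window was the one without CAGAC.

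The labelled cell type was checked on marker genes. The pluripotency genes Pou5f1, Sox2, Nanog, Zfp42 and Esrrb were well above background on all 4 arrays, with summed normalised intensities of 164151 on ES, 43820 on ELA, 192574 on AZA and 78816 on CHQ. Esrrb read 14.93, 12.08, 15.98 and 13.97 on ES, ELA, AZA and CHQ, Zfp42 read 15.80, 11.99, 15.72 and 15.04, and Sox2 read 13.43, 12.77, 13.76 and 13.41, each lowest on ELA. Nanog read 15.03, 12.53, 15.39 and 12.54, as low on CHQ as on ELA, and its dimmer probe differed from ELA by -1.55 on AZA and -1.01 on CHQ. Pou5f1 read 14.95, 14.46, 14.05 and 13.56 and was lowest on CHQ. The primed epiblast gene Fgf5 read 11.61, 14.47, 11.94 and 13.33 in the same order, highest on ELA. The other primed markers were not, with Otx2 at 15.27, 15.85, 16.17 and 15.54, highest on AZA, and Pou3f1 at 14.36, 15.19, 13.64 and 15.48, highest on CHQ. The part of a shift between these states in the Nodal and Lefty values was not tested.

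Markers of other cell types also moved. The numbers of markers above background compare slides of unlike local background, so that Afp counted as above background on AZA at a mean spot intensity of 71.2 and not on ELA at 78.7; detection and slide cannot be told apart in them. Of 9 markers of extraembryonic endoderm, a tissue that also makes Lefty1, 4 were well above background on ES, 3 on ELA, 8 on AZA and 7 on CHQ, with summed normalised intensities of 1007, 1387, 1353 and 2974. Gata6 read 6.41, 6.69, 8.06 and 9.89 and Sox17 6.37, 6.76, 7.76 and 9.51 on ES, ELA, AZA and CHQ, so both were highest on CHQ. Foxa2, also a mesendoderm marker, and Dab2 were highest on ELA instead, and differed from ELA by -1.81 and -1.47 on AZA and by -1.01 and -1.34 on CHQ. Ttr was not well above background on any array. Of 5 trophoblast markers, 4, 2, 3 and 4 were well above background on ES, ELA, AZA and CHQ (summed 7671, 2260, 4826 and 10600), Cdx2 on ES alone. Tfap2c, which makes up most of these sums on ES, AZA and CHQ, read 12.65, 9.79, 11.90 and 13.23, whereas Eomes was lowest on CHQ, at 9.58, 10.14, 9.44 and 9.25. The dimmer Eomes probe read 7.14, 7.83, 7.86 and 7.66 and was lowest on ES. The 3 early neural markers summed to 7037, 12287, 4029 and 5270, a sum carried by Nes and highest on ELA, whereas Pax6 was highest on ES at 8.04. The mesendoderm markers, among which Mixl1 was above background on CHQ alone, summed to 411, 731, 514 and 499 on ES, ELA, AZA and CHQ, with Foxa2 highest on ELA and T and Gsc highest on AZA, at 7.31 and 7.48. The part of such cells in the member values was not tested.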

How the data were processed

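The members and gene lists were chosen with earlier results of these data known. Per the file headers, the authors scanned single-colour Agilent arrays with Feature Extraction 10.7.3.1, whereas the submitters' processing notes name version 9.1 and limma. Each deposited scanner file gives the mean intensity of a spot, the median of its local background and a processed signal, with no normalisation between arrays. The deposited value table is on the log2 scale, after background correction and quantile normalisation by the authors with limma; its columns have medians of 6.24, 6.20, 6.24 and 6.24 for ES, ELA, AZA and CHQ and correlate across probes with the main values at 0.991 to 0.992, and it served as an alternative.

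Main values came from limma 3.58.1 in R 4.3.3, by normexp on the mean and local background intensities with an offset of 50 and quantile normalisation of the 4 arrays. Control spots and outlier-flagged spots were then left out (559 probes had no usable spot on some array), and log2 values were averaged over the spots of each probe. The brightest probe by mean over the arrays stood for a gene. RefSeq accessions (GRCm38.p6, for names only) named 26582 probes, and the others kept the name in the files. Probe coordinates are those of the files (mm9). Promoter sequences are RefSeq's.

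The thresholds of size, a log2 difference of 1 and a mean level of 7.5, follow the methods of the study, whose p-value could not be applied to 1 array per group. Named were every member, the 5 nearest profiles of Nodal, Lefty1 and Lefty2, and the markers. Each other pathway gene called changed was named too (at most 3 per role and comparison), leaving out the comparisons of AZA and CHQ with ES. The steps were tested on simulated data. Array comparisons across slides cannot be told apart from the slides. A SmarcA4 knockdown array was not analysed here, and some pathway genes are not reported here.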

Additional observations from a re-analysis of the deposited data

Results flagged for a closer look

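Among members and other pathway genes called changed in at least 1 comparison, those were singled out where AZA and CHQ stood on opposite sides of the ELA array by more than the spread of repeated spots. Tgfbr2, the type II receptor for TGF-beta, differed from ELA by -0.42 on AZA and by 1.13 on CHQ, a gap of 1.56 log2 units. Its dimmer probe lay above ELA on both arrays, by 0.33 and 0.45, so the opposite directions rest on 1 probe. Tgfb2, a TGF-beta ligand, differed from ELA by -0.58 on AZA and by 0.28 on CHQ, a gap of 0.86; its dimmer probe was not well above background on ELA. Tgfb1, which was not called in the main setting, differed by 0.74 and -0.23; it was called lower in CHQ minus AZA under 5 of 7 alternatives. With 1 array per group these differences were not tested. No member went in opposite directions on the treated arrays in its brightest probe beyond that spread.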

How the results depend on the processing

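Nodal, Lefty1, Lefty2 and Smad7 kept their sign and their call in ELA minus ES, AZA minus ELA and CHQ minus ELA under the 5 alternatives that could change their values, and so did Lefty1 and Lefty2 in CHQ minus AZA. The 8 alternatives were scaling to the 75th percentile of the processed signal, scaling to spike-in probes, no background correction, a normexp offset of 16, the deposited value table, no filter on dim probes, the mean over the probes of a gene, and leaving out the flatter Tdgf1 probe and averaging the others, which was chosen after seeing the data; for the genes with 1 probe, the last 3 could not change a value. Lefty1 in AZA minus ELA ranged from 5.91 to 6.66 and Nodal from 4.69 to 5.03. The 75th percentile gave 8 members changed in AZA minus ELA in place of 5, 8 other pathway genes in that comparison in place of 5 (as did no filter on dim probes), and 5 in CHQ minus AZA in place of 3, where the mean over probes gave 1. In the mean of the probes other than the flatter one, Tdgf1 differed by -4.37 in ELA minus ES, 3.68 in AZA minus ELA and 4.20 in CHQ minus ELA, and entered the counts as changed. The mean over probes turned Skil to -0.49 in AZA minus ELA, and the 75th percentile and spike-in scaling each turned it to -0.03. Spike-in scaling moved the median of all genes to -0.59 in ELA minus ES, -0.26 in AZA minus ELA, -0.39 in CHQ minus ELA and -0.18 in CHQ minus AZA, and the share of called genes that were higher from 55.7% to 45.4%, from 55.5% to 32.9% and from 53.5% to 41.7% in the last 3; the 75th percentile gave a median of -0.26 and a share of 42.0% in CHQ minus ELA. Of 288 member differences recomputed, 96 could not change by construction; of the other 192, 141 moved by no more than the spread of repeated spots and 51 by more, and the cause was not tested. Of 25 calls of other pathway genes, 16 were kept under all 7 alternatives and 9 were lost under some: Inhbb and Tgfbr3 in ELA minus ES, Tgfbr2, Smad3, Ski, Pmepa1 and Gdf1 in CHQ minus ELA, and Tgfbr2 and Gdf1 in CHQ minus AZA. No paired analysis was possible because each group has 1 array.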
